A study of Homo sapiens with 12 samples.

Results

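hsa-mir-216a is a microRNA hairpin on human chromosome 2 with 2 mature products, hsa-miR-216a-3p and hsa-miR-216a-5p (below without the species prefix), which are 2 of the 1286 mature names in a small RNA count table of 12 libraries. The hairpin was chosen by its read counts, which were highest in the cells that received no DROSHA, so its levels and arm ratio against those cells are given here as a description and without a test. All cells were HCT116, a human colorectal carcinoma line, with DROSHA knocked out, and all received 4.5 µg of the plasmid pXC-NLS-DG4, whose coding content the labels do not give. Together with it they received a pCK plasmid that coded for DROSHA without its belt (pCK-DROSHA_belt_deletion), for the DROSHA mutant m4 (pCK-DROSHA_m4), for wild type DROSHA, or for nothing (pCK empty plasmid). Each of these 4 groups has 3 libraries. The DROSHA-coding plasmid was used at 4.5 µg, and what is altered in m4 is not stated in the labels. Repeats are numbered in the labels without a word on separate cultures, so p-values measure only the spread between these libraries, which may be technical. The number of knockout clones is not stated either.

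DROSHA is the nuclear RNase III enzyme that, with DGCR8, cuts the hairpin out of a primary miRNA transcript. DICER then removes the loop, and 1 strand of the remaining duplex, from the 5p or the 3p arm, is kept in an Argonaute protein while the other is usually lost. Some hairpins, such as mir-320a and the spliced-out mirtrons, reach DICER without DROSHA. miR-216a is best known, with its genomic neighbours miR-216b and miR-217, as a miRNA of the exocrine pancreas.

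The sequences below, from RefSeq (GRCh38.p14), show what the reads of each arm are and which other miRNAs they resemble; capitals mark the seed, bases 2 to 8, which guides target recognition.
miR-216a-3p: uCACAGUGgucucugggauuau
miR-216a-5p: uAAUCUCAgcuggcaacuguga
miR-128-3p: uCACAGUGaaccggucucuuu
miR-27b-3p: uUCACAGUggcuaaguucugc
miR-216b-5p: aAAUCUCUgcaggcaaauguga
miR-128-3p, a miRNA enriched in neurons, was the only other miRNA in the table with the seed of miR-216a-3p. miR-27a-3p and miR-27b-3p hold the same 7 letters 1 base further on, from position 3. No other miRNA of the table has the seed of miR-216a-5p, and that of its paralogue miR-216b-5p differs in the last letter.

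MIR216A lies at chr2:55988950-55989059 on the minus strand, in an intron of the long non-coding RNA gene MIR217HG in GENCODE 29, and the lincRNA AC011306.1 spans the same place on the plus strand. Whether the authors' counting used strand is not given in the sources used here. The 3p arm is at chr2:55988981-55989002 and the 5p arm at chr2:55989020-55989041. MIR217 lies 5873 bases and MIR216B 11654 bases away on the same strand. The table has no line for mir-217 or mir-216b, so no value can be given for these neighbours. Each arm of mir-216a has a single line in the table, under 1 hairpin.

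The hairpin is shown with the arms in capitals, 5p first, because its values below differ so much between the arms.
mir-216a: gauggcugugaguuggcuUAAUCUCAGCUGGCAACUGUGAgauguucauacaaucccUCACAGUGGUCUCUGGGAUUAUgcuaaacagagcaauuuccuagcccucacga
It has 110 bases, with 18 before the 5p arm, 17 between the arms and 31 after the 3p arm. In the minimum-energy fold by RNAfold, 19 of the 22 bases of the 5p arm pair with the 3p arm. The folding energy was -0.366 kcal/mol per base, against a median of -0.465 over 739 human hairpins with both arms in the RefSeq table, and 83.9% of these were more stable per base. The letters UGU, of a motif known in apical loops of DROSHA substrates, occur on the sense strand between the arms of mir-216a and of 33.7% of these hairpins. The whole 22 bases of either arm were found in no GENCODE 29 transcript other than MIR216A. The longest run of the 3p arm in another gene's transcripts was 16 bases, in NOL4L. Its longest run in another miRNA of the table was 9 bases, in miR-27a-3p and miR-27b-3p.

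DROSHA mRNA is not measured in small RNA libraries, so the labels were checked through miRNAs known to need DROSHA. let-7i-5p stood at 20740, 1170 and 23510 scaled reads with the belt deletion, m4 and wild type, and at 335 with the empty plasmid (means of 3 libraries). Scaled reads are counts divided by a library size factor taken from DROSHA-independent miRNAs. Table totals ran from 132667 to 407461 reads per library. Of 9 miRNAs fixed as colon epithelium or colon cancer markers all 9 were in the table, and their summed scaled reads were 67900 to 79640 with the belt deletion, 5882 to 9834 with m4, 47530 to 103100 with wild type and 1870 to 2591 with the empty plasmid. miR-21-5p made up most of these sums. With the belt deletion miR-200c-3p averaged 89.9 and miR-194-5p 1.82, and miR-194-5p had reads in only 6 libraries. Some markers of other tissues had more than miR-200c-3p, such as miR-7-5p (pancreas islet, 1686), miR-126-3p (endothelium, 404) and miR-143-3p (smooth muscle, 185). All of them stood below miR-21-5p (74880). The other markers of the islet and smooth muscle lists were low with the belt deletion, miR-375-3p at 11.9 and miR-145-5p at 1.13. miR-145-5p had reads in only 4 libraries. The summed markers of blood and of skeletal muscle stayed at or below 1.80 in every library. Of 3 pancreas acinar markers miR-216a-5p was the only one in the table.

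miR-216a-3p carried 4019 of the 4145 reads of the hairpin and set its pattern. It was counted 729, 93 and 567 times with the belt deletion (libraries 1, 2 and 3), 40, 79 and 92 times with m4, 47, 20 and 22 times with wild type, and 975, 670 and 685 times with the empty plasmid. In scaled reads these were 641, 117 and 483.8 with the belt deletion, 42.9, 73.0 and 118 with m4, 55.9, 36.0 and 24.8 with wild type, and 733, 466 and 455 with the empty plasmid. The empty plasmid libraries and belt deletion libraries 1 and 3 were high, and the other 7 were low, belt deletion library 2 among them. With its counts, the 95% Poisson interval of belt deletion library 2 was 75.1 to 114 reads and that of library 3 was 521 to 616 reads, so the gap between them is wider than counting error. Such intervals, here and below, cover counting error only.

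**Figure D1:**
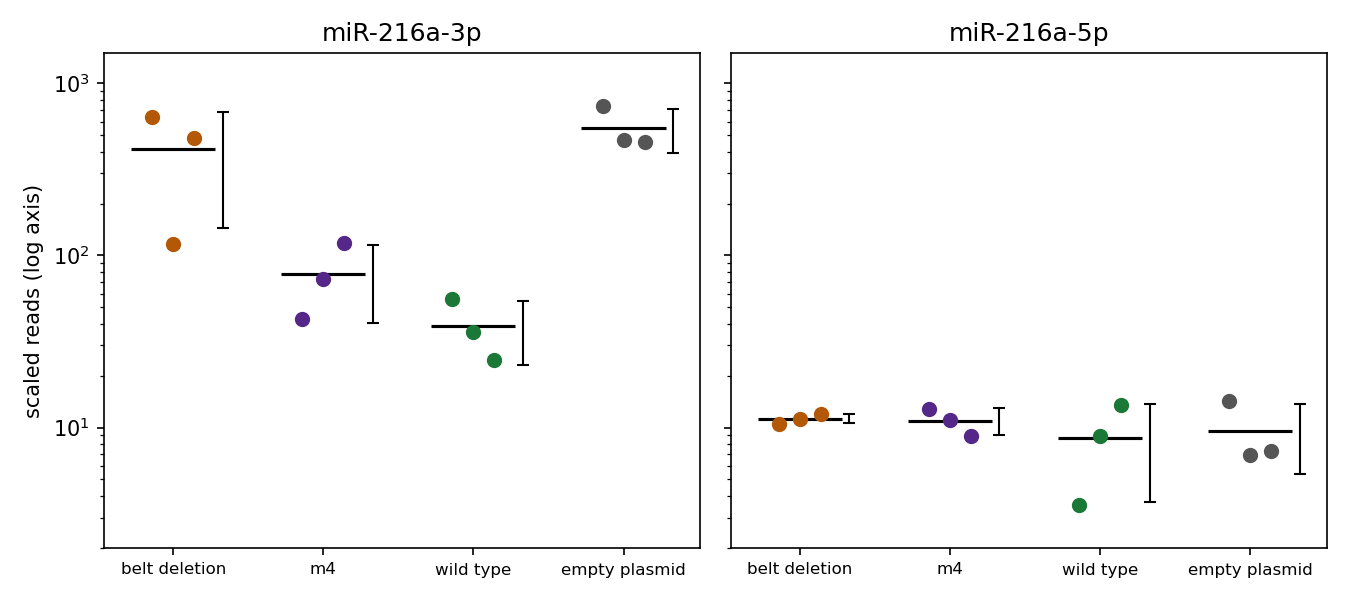
Scaled reads of miR-216a-3p (left) and miR-216a-5p (right) in each library, on a log axis, for belt deletion, m4, wild type and empty plasmid. Points are libraries 1 to 3 from left to right, horizontal lines are means and bars are ± SD (n = 3). miR-216a-3p spans 24.8 to 733 scaled reads, while miR-216a-5p stays between 3.57 and 14.3.

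The rank of miR-216a-3p within a library does not depend on any scaling. It ranked 31, 76 and 34 among all miRNAs with the belt deletion, 101, 78 and 66 with m4, 130, 147 and 159 with wild type, and 12, 14 and 14 with the empty plasmid. In RPM (collapsed reads scaled to the library total) it had 2251, 388 and 1707 with the belt deletion, 393, 353 and 852 with m4, 165, 115 and 102 with wild type, and 3909, 3309 and 2483 with the empty plasmid. By rank and by share the empty plasmid libraries were above every other library. Both measures also depend on the other miRNAs of a library, so they do not follow the amount of miR-216a-3p alone. let-7i-5p, for example, averaged 23510 scaled reads in the wild type libraries but 335 in the empty plasmid ones. In scaled reads belt deletion library 1 (641) was above empty plasmid libraries 2 and 3 (466 and 455).

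miR-216a-3p averaged 414 ± 269 scaled reads with the belt deletion, 77.9 ± 37.6 with m4, 38.9 ± 15.8 with wild type and 551 ± 158 with the empty plasmid (SD, n = 3 each). In bulk libraries such as these, fewer cells with the miRNA and less of it per cell cannot be told apart. From high to low the means ran from empty plasmid through belt deletion and m4 to wild type, and neighbours in this order overlapped in every case. Belt deletion library 1 was above empty plasmid libraries 2 and 3. Belt deletion library 2 was just below m4 library 3. The lowest m4 library was below the highest wild type library. The mean was 1.33-fold lower with the belt deletion, 7.08-fold lower with m4 and 14.2-fold lower with wild type than with the empty plasmid. The gap of the belt deletion depended on the scaling: its log2 difference from the empty plasmid was -0.41 here, -1.06 with TMM, -0.95 with DESeq2 size factors, -1.16 with total counts and -0.20 with the reference sum. Without belt deletion library 2 it was 0.03. All libraries of m4 and of wild type lay below the empty plasmid, while those of the belt deletion did not. Of 310 miRNAs tested, 3.87% lay wholly below the empty plasmid in the belt deletion libraries, 1.94% in those of m4 and 5.81% in those of wild type. These are the values that chose the hairpin, and nothing is read from them.

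The comparison of the belt deletion with wild type sets cells given a DROSHA without its belt against cells given the intact enzyme. The amount of either protein is not measured in these libraries, so its part in a difference cannot be told apart. The hairpin was chosen on the empty plasmid against the rest, not on this contrast. That choice used the values of both groups compared here, so this test is not independent of it. The same holds for the tests below among the groups with DROSHA. With the belt deletion, miR-216a-3p stood 10.6-fold above wild type, and each of the 3 belt deletion libraries was above each wild type library. The log2 difference was 3.41 (SE 0.60, 95% interval 2.12 to 4.70, edgeR adjusted p = 0.00104). It was the largest rise among the 310 miRNAs tested, of which 3.23% were called higher, and the median of all 310 was 0.04. These 10 calls became 6 without wild type library 3. Of the 310, 15.2% lay wholly above wild type. The two-sided exact permutation p for the 3 against 3 libraries was 0.1, the smallest this design allows. Without belt deletion library 2 the log2 difference was 3.85.

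**Figure D2:**
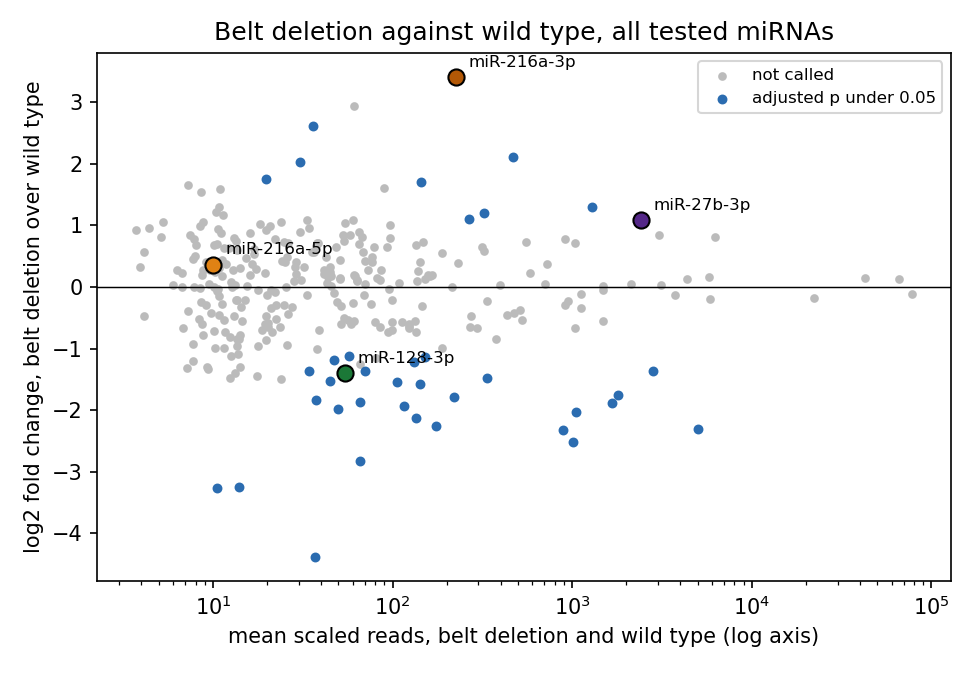
Log2 fold change of belt deletion over wild type (vertical) against the mean scaled reads in these groups (horizontal, log axis) for the 310 tested miRNAs. Each point is a miRNA, blue ones have an adjusted p under 0.05, and miR-216a-3p, at 3.41, lies above all others, while miR-216a-5p is at 0.36.

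Against m4, miR-216a-3p was 5.32-fold higher with the belt deletion (log2 difference 2.41, SE 0.56, 95% interval 1.19 to 3.64, edgeR adjusted p = 0.00438). The groups touched, since belt deletion library 2 had 117 scaled reads and m4 library 3 had 118, and the exact permutation p was 0.2. Of the tested miRNAs 25.8% were called higher in this comparison, in which miR-216a-3p ranked 31 of 310, so a call here is common. The median of all 310 was 0.14. Without belt deletion library 2 the log2 difference was 2.86.

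Between m4 and wild type no difference in miR-216a-3p was called. The mean was 77.9 scaled reads with m4 and 38.9 with wild type, a log2 difference of 0.99 (SE 0.57, 95% interval -0.24 to 2.23, edgeR adjusted p = 0.199), and the groups overlapped. The width of the interval leaves a difference of 2.23 on the log2 scale possible, so the groups are not shown to be alike. In this comparison 3.55% of the tested miRNAs were called higher and 34.2% lower, and the median of all was -0.19. The 11 calls of higher miRNAs became 30 without m4 library 1, 2 without m4 library 3, and 39 with DESeq2 size factors. With total-count scaling, which raises the median by 1.05, the difference was 2.04 and was called (edgeR adjusted p = 0.00762). In that setting 133 of the 310 miRNAs were called higher, so a call there is common. With these 2 groups alone in the fit the difference was also called (edgeR adjusted p = 0.0433). In that fit 7 of 255 miRNAs were called higher.

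Belt deletion library 2 was low for miR-216a-3p and for few other miRNAs, and miR-216a-3p ranked 3 from the lowest of 310. The highest belt deletion library was 5.50-fold above the lowest, a log2 spread of 2.45 where the median tested miRNA had 0.71. This spread ranked 10 of 310 and 4 of the 114 miRNAs that averaged 50 reads or more, after miR-1268a, miR-320e and miR-320d. Relative to the mean of libraries 1 and 3, library 2 was at -2.25 for miR-216a-3p (log2), and the median of the tested miRNAs was 0.38. It was at 0.19 for let-7i-5p, 0.13 for miR-21-5p and 0.01 for miR-216a-5p. Over all 310 miRNAs the belt deletion libraries correlated at 0.94 to 0.96 (Pearson, log2 scaled reads + 1, across miRNAs, which are not independent), and the 2 pairs with library 2 gave 0.94 and 0.96. Library 2 had 286810 table reads, against 390428 and 407461 in libraries 1 and 3, and the part of this depth in the difference was not tested. In the other groups the highest library was 2.74-fold (m4), 2.25-fold (wild type) and 1.61-fold (empty plasmid) above the lowest.

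miR-216a-5p, which shares the precursor, did not follow the 3p arm. It was counted 12, 9 and 14 times with the belt deletion, 12, 12 and 7 times with m4, 3, 5 and 12 times with wild type, and 19, 10 and 11 times with the empty plasmid. The means were 11.3 ± 0.695 scaled reads with the belt deletion, 10.97 ± 1.96 with m4, 8.70 ± 4.99 with wild type and 9.52 ± 4.14 with the empty plasmid (SD, n = 3 each). All groups overlapped, and the highest of the 12 libraries had 14.3 and the lowest 3.57 scaled reads. The arms correlated at 0.05 over the 12 libraries (Pearson, log2 scaled reads + 1), which share the size factors and, for the 5p arm, counts of 3 to 19.

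No difference in miR-216a-5p was called among the groups with DROSHA. The log2 difference was 0.36 for the belt deletion against wild type (95% interval -0.79 to 1.52, edgeR adjusted p = 0.732) and 0.03 for the belt deletion against m4 (95% interval -1.06 to 1.12, edgeR adjusted p = 0.985). For m4 against wild type it was 0.33 (95% interval -0.83 to 1.5, edgeR adjusted p = 0.685). A rise of 1.0 on the log2 scale lies inside each of the 3 intervals and is not excluded by them. Over the empty plasmid the ratio of means was 1.18 with the belt deletion, 1.15 with m4 and 0.914 with wild type, as a description. None of these directions held under every scaling: with TMM the belt deletion and m4 were lower than the empty plasmid (log2 differences of -0.48 and -0.39), and with the reference sum wild type was higher (0.25).

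The share of the hairpin's reads on the 3p arm was 98.4%, 91.2% and 97.6% with the belt deletion, 76.9%, 86.8% and 92.9% with m4, 94.0%, 80.0% and 64.7% with wild type, and 98.1%, 98.5% and 98.4% with the empty plasmid. The 3p arm held the majority in all 12 libraries, and the wild type libraries differed most among themselves. Their exact 95% binomial intervals (Clopper-Pearson) were wide, 83.5% to 98.8%, 59.3% to 93.2% and 46.5% to 80.3%, as they rest on 50, 25 and 34 reads. In the empty plasmid libraries the intervals all lay between 97.0% and 99.3%, on 994, 680 and 696 reads.

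**Figure D3:**
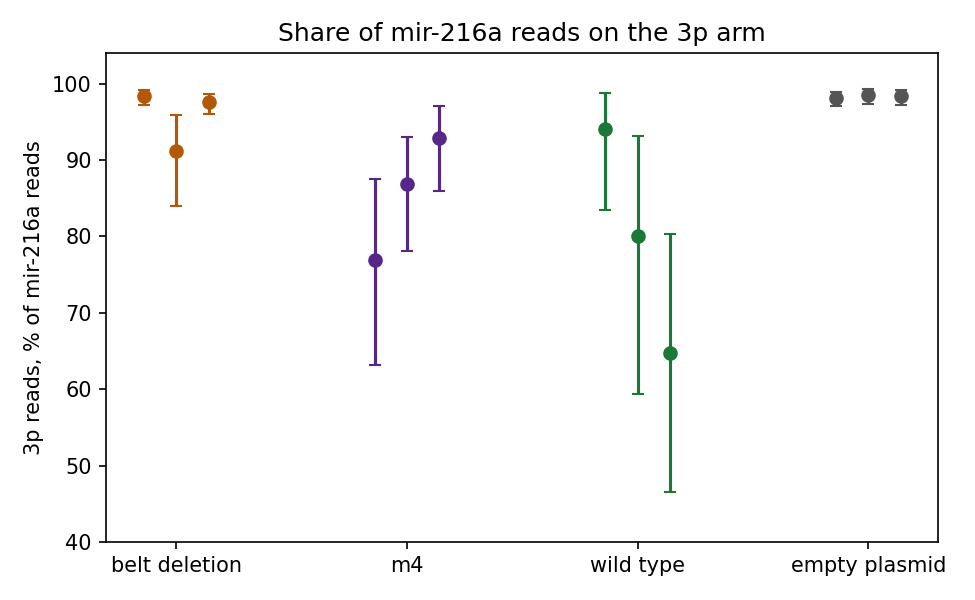
Share of mir-216a reads on the 3p arm in each library, in percent, with exact 95% binomial intervals, for belt deletion, m4, wild type and empty plasmid (libraries 1 to 3 from left to right in each group). The vertical axis starts at 40%. The empty plasmid libraries lie at 98.1% to 98.5% and the wild type libraries spread over 64.7% to 94.0%.

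The log2 ratio of 3p to 5p reads was compared over 103 hairpins with limma. For mir-216a this ratio uses the same 3p reads as the level tests above, so it is not independent of them. It averaged 4.82 ± 1.35 with the belt deletion, 2.66 ± 0.96 with m4, 2.17 ± 1.48 with wild type and 5.85 ± 0.18 with the empty plasmid (SD, n = 3 each). For the belt deletion against wild type the difference was 2.65 (SE 0.81, 95% interval 0.94 to 4.35), which missed the threshold after adjustment (limma adjusted p = 0.0721, exact permutation p = 0.2). It was the third highest of the 103 hairpins, of which 1.94% were called higher, and the median absolute difference over all was 0.66. Against m4 the belt deletion differed by 2.16 (SE 0.81, limma adjusted p = 0.0911), where 5.83% of the hairpins were called higher. m4 against wild type differed by 0.49 (95% interval -1.21 to 2.20, limma adjusted p = 0.764), with 5.83% of the hairpins called higher here too. Without belt deletion library 2 both comparisons of the belt deletion were called, with a difference of 3.41 against wild type (limma adjusted p = 0.0259) and of 2.92 against m4 (limma adjusted p = 0.0399). Of the 103 hairpins, 3 were then called higher against wild type and 6 against m4. The comparison with wild type was also called without wild type library 1 (3.45, limma adjusted p = 0.0288), where 4 of the 103 hairpins were called higher. Leaving out any other library of the groups compared gave no call. The limma adjusted p then reached 0.244 against wild type and 0.279 against m4, both without belt deletion library 1. Both comparisons were called with a pseudocount of 1 in place of 0.5. In that setting 5 of the 103 hairpins were called higher against wild type and 11 against m4.

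The miRNAs that share the seed letters of miR-216a-3p had another order of levels. miR-128-3p had 25.5, 43.9 and 21.3 scaled reads with the belt deletion, 26.8, 35.1 and 49.9 with m4, 105, 70.2 and 60.9 with wild type, and 15.8, 13.9 and 11.3 with the empty plasmid. It was highest with wild type and lowest with the empty plasmid, where miR-216a-3p was highest. It rose with wild type against the empty plasmid by 2.52 (log2, SE 0.40, edgeR adjusted p = 5.60e-08), among 42.6% of the tested miRNAs called higher. It fell with the belt deletion against wild type by 1.39 (SE 0.38, edgeR adjusted p = 0.00507), where 9.35% were called lower and miR-216a-3p was called higher. In that comparison miR-27b-3p, of a cluster with miR-23b and miR-24-1, rose as well, to 3259 ± 708 scaled reads with the belt deletion, against 1541 ± 549 with wild type (log2 difference 1.08, SE 0.33, edgeR adjusted p = 0.0138; SD, n = 3 each). miR-27a-3p averaged 873 scaled reads with the belt deletion and 1017 with wild type and was not called (log2 difference -0.22, edgeR adjusted p = 0.701).

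In the belt deletion libraries miR-216a-3p and miR-128-3p thus stood in different proportions to each other. Scaled reads of miR-216a-3p were 641, 117 and 483.8, and those of miR-128-3p 25.5, 43.9 and 21.3, in libraries 1, 2 and 3. Library 2, the lowest of the 3 for miR-216a-3p, was the highest for miR-128-3p. miR-27b-3p and let-7i-5p were also highest in library 2, at 3936 and 22510 scaled reads. This is common, since the median tested miRNA stood 0.38 (log2) above the mean of libraries 1 and 3 there.

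**Figure D4:**
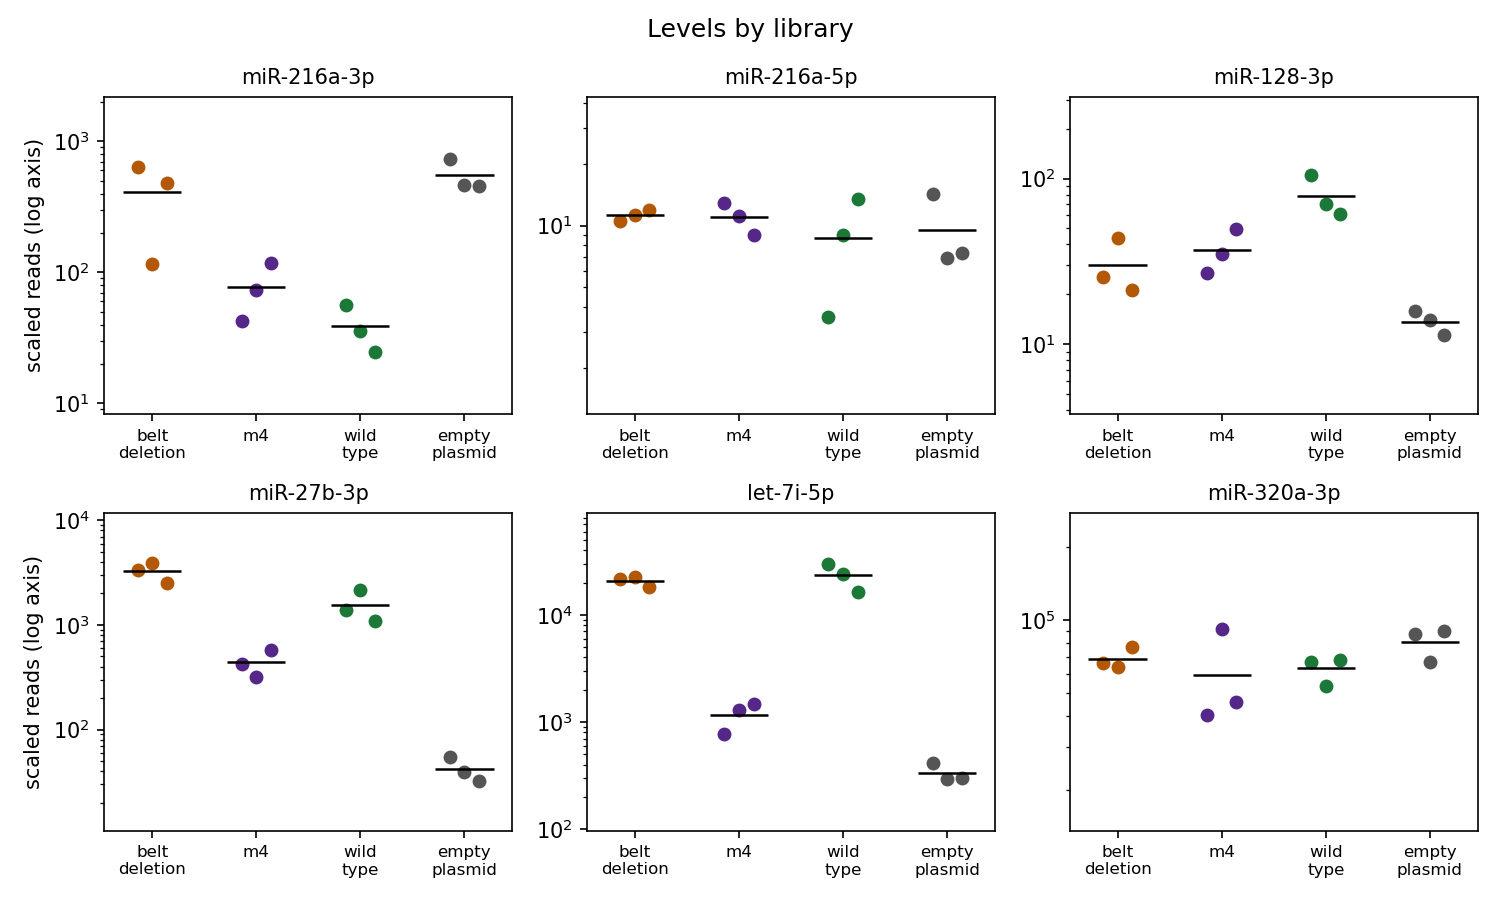
Scaled reads in each library (points, libraries 1 to 3 from left to right; lines are means, n = 3) for both arms of mir-216a, miR-128-3p, miR-27b-3p, let-7i-5p and the DROSHA-independent miR-320a-3p, each on its own log axis. let-7i-5p averages 20740, 1170, 23510 and 335 with the belt deletion, m4, wild type and empty plasmid, while miR-216a-3p averages 414, 77.9, 38.9 and 551.

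By Pearson correlation of log2 (scaled reads + 1) over the 12 libraries, the miRNAs most like miR-216a-3p among 351 others were miR-320c (0.76), miR-3614-5p (0.73), miR-4745-5p (0.69), miR-4658 (0.68) and miR-6755-5p (0.68). miR-4658 and miR-6755-5p averaged only 10.8 and 6.17 reads per library, so their correlations are not read as a likeness. The libraries share the size factors, to which the miR-320 family contributes. miR-320c, a member of that DROSHA-independent family, had 1297 ± 136 scaled reads with the belt deletion, 817 ± 347 with m4, 788 ± 113 with wild type and 1274 ± 91.6 with the empty plasmid (SD, n = 3 each). The range of miR-320c, 531 to 1452 scaled reads, was narrower than the 24.8 to 733 scaled reads of miR-216a-3p. For miR-216a-5p the highest correlations were with miR-6826-5p (0.70), miR-320e (0.65), miR-4489 (0.64), miR-5094 (0.58) and miR-4758-5p (0.58), and with 3 to 19 reads per library they are not read as a likeness.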

How the data were processed

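Small RNAs of 19 to 24 nt from 10 µg of total RNA were cloned with a NEBNext kit, per the labels' protocols. The deposited table holds raw counts per mature miRNA and hairpin. cutadapt, Bowtie2 and hg38 were used, per the submitters' processing notes; the counter, multi-mapping and strand settings are not given in the sources used here. The table has 1409 lines, and blank cells were read as 0. For each mature name its most abundant line was kept, and 9 name pairs whose reads matched (within 5 reads or 5%) were joined, which left 1277 miRNAs. Library size factors are median ratios over 5 DROSHA-independent features: miR-484, the miR-320 family and 3 mirtron-type miRNAs (miR-1226, miR-1224, miR-877), none under 20 reads in any library. These features did not fully agree. After scaling, miR-484 had 420 to 467 reads with the belt deletion and 615 to 833 with the empty plasmid. miR-1224 had 956 to 1425 with the belt deletion and 660 to 691 with wild type. Table totals were 132667 to 407461 reads per library, and binomial and Poisson intervals cover counting error only.

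Levels were tested with edgeR 4.0.16 (robust quasi-likelihood test, R 4.3.3) on the 12 libraries together, over 310 miRNAs kept by filterByExpr, and arm ratios with limma 3.58.1 (pseudocount 0.5) over 103 hairpins with at least 10 reads on the arms together in every library. p-values are Benjamini-Hochberg adjusted and called under 0.05. The scripts were tested on simulated data. Sequences were folded with RNAfold 2.7.2. Named were the arms, mir-216b and mir-217, shared seeds, the 5 most correlated miRNAs per arm (mean of at least 5 reads) and 3 reference miRNAs. miR-27a-3p, miR-27b-3p, miR-1268a, miR-320d, miR-6721-5p, miR-1538, miR-4647 and miR-877-5p were added after values were seen. Alternatives covered scaling, filters, DESeq2 1.42.0, hairpin copies, pseudocount, the 2 groups alone, the replicate number and leaving out libraries. Members and lists were chosen with earlier results of these data known.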

Additional observations from a re-analysis of the deposited data

How the results depend on the processing

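For miR-216a-3p, both calls of the belt deletion, against wild type and against m4, held under all 16 alternatives run for each (4 scalings, DESeq2 1.42.0, 2 filters, summed hairpin copies, the 2 groups alone, the replicate block and leaving out each library). Leaving out 1 library gave 2.95 to 3.85 against wild type and 1.95 to 2.86 against m4. For m4 against wild type it gave 0.58 to 1.37, and the difference was called with total-count scaling (2.04), with the 2 groups alone (0.99, adjusted p = 0.0433) and with the replicate block (1.08, adjusted p = 0.0456); the cause was not tested. Same-numbered libraries correlated at -0.25 to 0.13 in 18 pairs, while differently numbered pairs reached -0.32 and 0.42. This shows no pairing by number but cannot exclude it, with 3 libraries per group. The block changed no other call. Against the empty plasmid, miR-216a-3p with wild type was at -4.70, -4.48 and -4.65 (TMM, DESeq2 size factors, total counts) and with m4 at -3.56 (TMM) and -2.24 (reference sum); without 1 library it ran from -4.19 to -3.56 with wild type, -3.24 to -2.53 with m4 and -0.87 to 0.03 with the belt deletion. The uncalled miR-216a-5p changed sign for the belt deletion against m4 (-0.082 with TMM, -0.16 with DESeq2 size factors, -0.95 with total counts, -0.30 with the reference sum), and against the empty plasmid for m4 (-0.39 under TMM, -0.21 under DESeq2 size factors) and the belt deletion (-0.48 with TMM, -0.37 with DESeq2 size factors, -0.49 with total counts). It was at -0.93 and -0.83 (TMM, total counts) for wild type and 0.77 (reference sum) for m4 against the empty plasmid, where wild type turned to 0.25 with the reference sum. Without 1 library it ran from -0.085 to 0.15 for the belt deletion against m4, -0.032 to 0.92 for the belt deletion and -0.062 to 0.89 for m4 against wild type, and against the empty plasmid from -0.67 to 0.29 for wild type, 0.04 to 0.62 for m4 and 0.070 to 0.65 for the belt deletion. The arm ratio of the belt deletion was called with a pseudocount of 1 against wild type (2.69, adjusted p = 0.0250) and m4 (2.16, adjusted p = 0.0408). Without 1 library it ran from 1.99 to 3.45 against wild type (called without belt deletion 2 and without wild type 1), 1.63 to 2.92 against m4 and, for m4 against wild type, -0.17 to 1.29. Total counts moved the median of all miRNAs by 1.05 for m4 against wild type and -1.002 for the belt deletion against m4, and the calls were 193 against 117 and 168 against 84; TMM moved it by -0.86 for wild type against the empty plasmid, with 218 calls against 134. The split of higher and lower calls was then 133 and 60 (11 and 106 in the main scaling), 47 and 121 (80 and 4) and 125 and 93 (132 and 2). Under TMM it was 43 and 97 for m4 against wild type and 26 and 29 for the belt deletion against wild type (10 and 29). With the 2 groups alone, miR-216a-5p could not be fitted for the belt deletion against wild type, as it fell under the filter. The 5p arm's 3 to 19 reads limit its tests and the arm ratio.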

Other observations

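Of the 310 tested miRNAs, 86 had their highest group mean with the belt deletion, 83 with m4, 110 with wild type and 31 (10.0%) with the empty plasmid. Means that ran from empty plasmid through belt deletion and m4 to wild type, high to low, were found for 6 of them (1.94%): miR-216a-3p, miR-3614-5p, miR-6721-5p, miR-1538, miR-4647 and the mirtron-derived miR-877-5p, 4 of which were named after their values were seen. The log2 ratio of means of wild type over the empty plasmid was -3.83 for miR-216a-3p, while for the other 5 it ran from -1.10 for miR-3614-5p to -0.06 for miR-877-5p, which is part of the size factors. miR-3614-5p had 32.9 scaled reads with the belt deletion, 24.98 with m4, 19.7 with wild type and 42.3 with the empty plasmid. The liver marker miR-122-5p was also highest with the empty plasmid, at 45.5 with the belt deletion, 65.1 with m4, 48.9 with wild type and 78.8 with the empty plasmid. These are values without a test of the order.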
